A study of Mus musculus with 24 samples.

Results

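Expression of 41 genes of DNA replication and mitosis was measured by RNA-seq in the bone marrow of 24 mice. The members were the rows of the TPM table whose Ensembl identifiers, without the version, carry their symbols in GENCODE M21. All 41 were found among 54752 rows, and all 41 were among the 12373 genes with a TPM (transcripts relative to the library total) above 1 in at least 1 library, so none was lost to the filter on low values. They form an S group of 21 genes, which act at the start of DNA synthesis or in it (Mcm2, Mcm3, Mcm4, Mcm5, Mcm6, Mcm7, Cdc6, Cdt1, Cdc45, Gins2, Pcna, Rrm1, Rrm2, Tyms, Pola1, Fen1, Lig1, Rfc4, Ung, Ccne1 and Ccne2), and an M group of 20 genes, which act in G2 and mitosis (Mki67, Top2a, Ccnb1, Ccnb2, Ccna2, Cdk1, Aurka, Aurkb, Bub1, Bub1b, Plk1, Cdc20, Kif11, Kif23, Tpx2, Cenpe, Cenpf, Birc5, Ube2c and Nusap1). The 24 mice were adult males in the C57BL/6 background, housed singly, 6 in each of 4 groups with a library per mouse. FL-WT mice were wild-type mice and FL-KO mice were Nrf2-knockout mice that stayed in space for 31 days, and GC-WT and GC-KO mice were the ground controls of the same genotypes. The knockout is germline, so Nrf2 is missing from every cell of the animal and not from the marrow alone. Cells were taken from the right pelvis and tibia after the flight mice had landed and were frozen before RNA was isolated. The blood of the flight mice was handled in the United States and that of the ground mice in Japan, so flight, landing and place of handling cannot be told apart. Flight mice were compared with ground mice within a genotype (WT flight comparison and KO flight comparison), and Nrf2-KO mice with WT mice within a place (ground genotype comparison and flight genotype comparison). Every difference is that of the flight group minus its ground group, or of the Nrf2-KO group minus its WT group.

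Before a cell copies its genome, the ORC complex, Cdc6 and Cdt1 load the Mcm2 to Mcm7 helicase onto replication origins, and cyclin E (Ccne1 and Ccne2) with its kinase, Cdc45 and the GINS complex (with Gins2) then set the helicase in motion. Polymerase alpha (Pola1) primes the new strands, Rfc4 helps to load the Pcna clamp, Fen1 and Lig1 join the pieces of the lagging strand, and Rrm1, Rrm2 and Tyms supply deoxynucleotides. In G2 and mitosis, Cdk1 with cyclins A and B, the kinases Plk1, Aurka and Aurkb, the spindle checkpoint (Bub1, Bub1b and Cdc20), and motor and spindle proteins (Kif11, Kif23, Cenpe, Cenpf, Tpx2 and Nusap1) condense, align and divide the chromosomes. In bone marrow, erythroblasts, B-cell progenitors and early myeloid cells divide often, whereas mature neutrophils do not divide. Both gene groups are classical targets of cell cycle transcription factors: E2F proteins act on the S group, and the DREAM complex, B-Myb and FoxM1 act on the M group.

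The promoters of the members were searched for the sequence letters that these factors are known for. RefSeq promoter windows of 300 bases on GRCm38.p6 were held for 35 of the 41 members (22 windows of 18 S genes and 17 windows of 17 M genes), while Mcm4, Gins2, Ccne2, Ccna2, Aurkb and Tpx2 had none. Both strands were searched for E2F sites (TTTCCCGC, TTTGGCGC or TTTCGCGC), for the cell cycle homology region (TTTGAA or TTCGAA) and for the CCAAT box (CCAAT), and none of these words contains another. E2F sites were in 8 of 22 S windows (36.4%), namely those of Mcm3, Mcm5, Mcm6, Mcm7, Cdc6, Cdt1, Pola1 and Lig1, in 1 of 17 M windows (5.88%, Cdk1) and in 1.84% of all 32851 windows. The cell cycle homology region was in 4 S windows (18.2%), in 13 M windows (76.5%) and in 19.2% of all windows, and the CCAAT box in 11 S windows, in 15 M windows (88.2%) and in 37.4% of all windows. Shown here are the windows of Cdt1 and Plk1, the S and the M member with the lowest fold change of the KO flight comparison. Those of Rfc4 and Ung are shown as well, the 2 members with a window whose fold changes there were nearest to 0. Fold changes were taken after adding 1 to TPM, which makes them small for genes at low levels such as Ung. The mean TPM of Ung in FL-KO mice was 62.5% of that in GC-KO mice, against 72.8% for Rfc4 and 70.9% for Pcna. By this share Ung was further from no change than Pcna. The Cdt1 window (chr8:122567765-122568064, plus strand) holds an E2F site, the Plk1 window (chr7:122159185-122159484, plus strand) holds a CCAAT box and a cell cycle homology region, and the Rfc4 window (chr16:23127681-23127980, minus strand) and the Ung window (chr5:114130185-114130484, plus strand) hold none of the 3 motifs. Each is written 5′ to 3′ on the strand of its gene, with the motifs in capitals.
Cdt1: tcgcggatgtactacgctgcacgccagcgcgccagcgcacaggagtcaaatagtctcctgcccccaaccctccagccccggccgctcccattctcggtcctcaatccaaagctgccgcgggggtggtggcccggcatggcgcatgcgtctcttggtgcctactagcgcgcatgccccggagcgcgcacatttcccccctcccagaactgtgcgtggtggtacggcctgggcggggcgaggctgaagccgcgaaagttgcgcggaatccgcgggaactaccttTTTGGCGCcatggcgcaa
Plk1: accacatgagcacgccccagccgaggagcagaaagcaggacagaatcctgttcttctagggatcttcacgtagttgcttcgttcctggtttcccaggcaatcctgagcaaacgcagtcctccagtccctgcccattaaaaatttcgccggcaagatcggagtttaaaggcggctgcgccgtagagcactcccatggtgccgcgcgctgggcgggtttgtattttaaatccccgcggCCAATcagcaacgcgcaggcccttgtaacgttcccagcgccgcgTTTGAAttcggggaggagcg
Rfc4: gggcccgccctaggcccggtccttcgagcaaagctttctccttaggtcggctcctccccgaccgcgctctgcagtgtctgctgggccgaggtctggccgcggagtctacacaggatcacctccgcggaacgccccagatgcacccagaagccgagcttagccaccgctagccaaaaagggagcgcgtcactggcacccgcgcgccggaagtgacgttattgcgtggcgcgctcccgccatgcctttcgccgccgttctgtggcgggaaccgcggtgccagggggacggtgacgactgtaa
Ung: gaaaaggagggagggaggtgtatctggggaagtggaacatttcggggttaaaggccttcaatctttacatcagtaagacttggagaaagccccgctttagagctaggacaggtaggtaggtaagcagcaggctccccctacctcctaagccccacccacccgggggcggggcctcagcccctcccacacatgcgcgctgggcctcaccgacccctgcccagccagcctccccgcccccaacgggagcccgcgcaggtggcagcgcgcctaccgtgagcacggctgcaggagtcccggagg
A match is a description of the letters and was not tested for a role in these data.

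The deposited table gives TPM without read counts, so the depth of the libraries is unknown and no counting interval can be given. Small RNAs (Rmrp, Rpph1, Rn7sk and the Rn7s genes) held 35.4% to 59.6% of TPM across libraries, and the FL-WT mouse with the highest share, mouse 5, was also the lowest of its group in the mean of both gene groups. Nfe2l2, the gene of Nrf2 (chr2:75675513-75704641, minus strand, GRCm38), was at 17.1, 21.4 and 26.1 TPM (lowest, median and highest of 6 mice, as in all such triplets) in GC-WT mice and at 11.4, 19.2 and 27.3 TPM in FL-WT mice. In Nrf2-KO mice it was at 3.6, 4.89 and 7.18 TPM on the ground and at 2.22, 3.10 and 4.31 TPM after flight, below every WT mouse. Fold changes are differences of the means of log2(TPM + 1) in a fit of all 24 libraries with limma, given with their standard errors (SE). The p-values were adjusted by Benjamini-Hochberg over all 12373 genes. Genes with an adjusted p under 0.1 and at least a 2-fold change are called DEGs, and a gene is said to be lower or higher where the adjusted p alone passed. The 4 comparisons share control groups and are not independent of each other. Over all tested genes, log2 fold changes had a median of -0.24 in the WT flight comparison, -0.29 in the KO flight comparison, -0.22 in the ground genotype comparison and -0.25 in the flight genotype comparison, and with median-of-ratios scaling between libraries it lay between -0.01 and 0.04, so counts and medians of the members were read against those of all genes.

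The first comparison asked how the marrow of WT mice differed after spaceflight. In the WT flight comparison (FL-WT vs. GC-WT), 18 of 21 S genes and 19 of 20 M genes were lower and none was higher, against 39.0% of all tested genes lower. The M group lay further down than the S group: its median log2 fold change was -0.69 (range -1.10 to -0.33), that of the S group was -0.50 (range -0.80 to -0.06), and those relative to the median of all genes were -0.45 and -0.26. The median member was at 62.4% of the GC-WT mean in the M group and at 70.0% in the S group. A single member, Mki67, was a DEG, against 0.938% of all genes that were lower DEGs. The 6 FL-WT mice were all below the 6 GC-WT mice for 5 M genes (Mki67, Cenpf, Cenpe, Ccna2 and Kif11) and 1 S gene (Cdc6), against 4.19% of all genes.

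Mki67, which encodes the coat protein of mitotic chromosomes used as a marker of dividing cells (chr7:135689784-135716361, minus strand), was at 73.0, 99.0 and 149 TPM in GC-WT mice and at 31.4, 44.6 and 66.2 TPM in FL-WT mice. Its log2 fold change was -1.10 (SE 0.21, limma, adjusted p = 0.000706), and FL-WT mice had 46.1% of the GC-WT mean. Cenpf, a large protein of the outer kinetochore, was at 6.99, 8.68 and 12.5 TPM in GC-WT mice and at 3.14, 4.40 and 6.73 TPM in FL-WT mice, and the log2 difference was -0.83 (SE 0.17, adjusted p = 0.00106). Cenpe, a kinetochore motor that helps chromosomes to align, was at 7.03, 8.11 and 11.1 TPM and at 3.12, 4.45 and 6.33 TPM, and the log2 difference was -0.75 (SE 0.15, adjusted p = 0.00116). For these 3 genes the highest FL-WT mouse was below the lowest GC-WT mouse, which gave the smallest p that 6 mice against 6 allow in an exact two-sided permutation test (p = 0.00216). This p restates the full separation, which 4.19% of all genes showed in this direction. Top2a, the topoisomerase that untangles sister chromatids, was at 49.1, 59.5 and 73.5 TPM and at 24.3, 38.1 and 53.0 TPM (log2 fold change -0.69, SE 0.17, adjusted p = 0.00559). Ccnb1, cyclin B1, was at 21, 24.9 and 28.4 TPM and at 10.7, 17.5 and 21.3 TPM (log2 fold change -0.57, SE 0.16, adjusted p = 0.0106). The ranges of the groups overlapped for both. Cdk1, the kinase partner of cyclin B, was the 1 M gene that did not pass (33.0, 40.5 and 46.0 TPM in GC-WT mice, 19.9, 35.1 and 41.02 TPM in FL-WT mice, adjusted p = 0.105).

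In the S group the lowest fold change of the WT flight comparison was that of Rrm2, the regulated subunit of ribonucleotide reductase (chr12:24708241-24714146, plus strand), which was at 53.6, 60.2 and 80.8 TPM in GC-WT mice and at 23.7, 37.2 and 54.0 TPM in FL-WT mice (log2 fold change -0.80, SE 0.18, adjusted p = 0.00221). Cdc6, a loader of the Mcm helicase, was at 9.51, 11.4 and 16.1 TPM and at 4.63, 7.66 and 9.32 TPM, without overlap (log2 fold change -0.70, SE 0.17, adjusted p = 0.00387). Ccne1, cyclin E1, was at 9.07, 10.5 and 15.8 TPM and at 4.46, 7.73 and 9.35 TPM (log2 fold change -0.63, SE 0.16, adjusted p = 0.00487). The Rrm2 and Ccne1 groups overlapped in their extreme mice. Mcm2, a helicase subunit (chr6:88883474-88898780, minus strand), was at 17.5, 25.8 and 33.5 TPM and at 10.7, 17.0 and 26.5 TPM (log2 fold change -0.57, SE 0.20, adjusted p = 0.0348). Pcna, the sliding clamp and the member with the highest mean TPM over all 24 mice, was at 88.6, 98.2 and 128 TPM and at 56.8, 89.7 and 100.5 TPM, and the log2 difference of -0.34 (SE 0.14, adjusted p = 0.0727) turned to 0.0077 and no longer passed with median-of-ratios scaling. Ung, a repair enzyme that removes uracil from DNA, was at 1.79, 2.10 and 2.20 TPM and at 1.02, 1.32 and 2.33 TPM and was lower, although the highest mouse of all 12 was an FL-WT mouse. Mcm5, another helicase subunit (28.3, 36.1 and 47.7 TPM in GC-WT mice, 20.4, 27.9 and 44.2 TPM in FL-WT mice, adjusted p = 0.167), Rfc4 (10.7, 13.1 and 17.3 TPM, then 8.79, 12.8 and 15.2 TPM, adjusted p = 0.374) and Gins2 (1.75, 2.14 and 2.54 TPM, then 1.51, 2.02 and 2.42 TPM, adjusted p = 0.637) did not pass the test.

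The count of S genes in the WT flight comparison rested on scaling and on a library more than that of M genes did. With median-of-ratios scaling, 6 S genes and 18 M genes were lower, against 15.9% of all genes. Without FL-WT mouse 5, 10 S genes and 19 M genes were lower, against 23.0% of all genes. The 1 DEG was lost with median-of-ratios scaling, with quantile normalization and with the trend of GC content and length removed, and also without FL-WT mouse 5 and without GC-WT mouse 6.

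**Figure D1:**
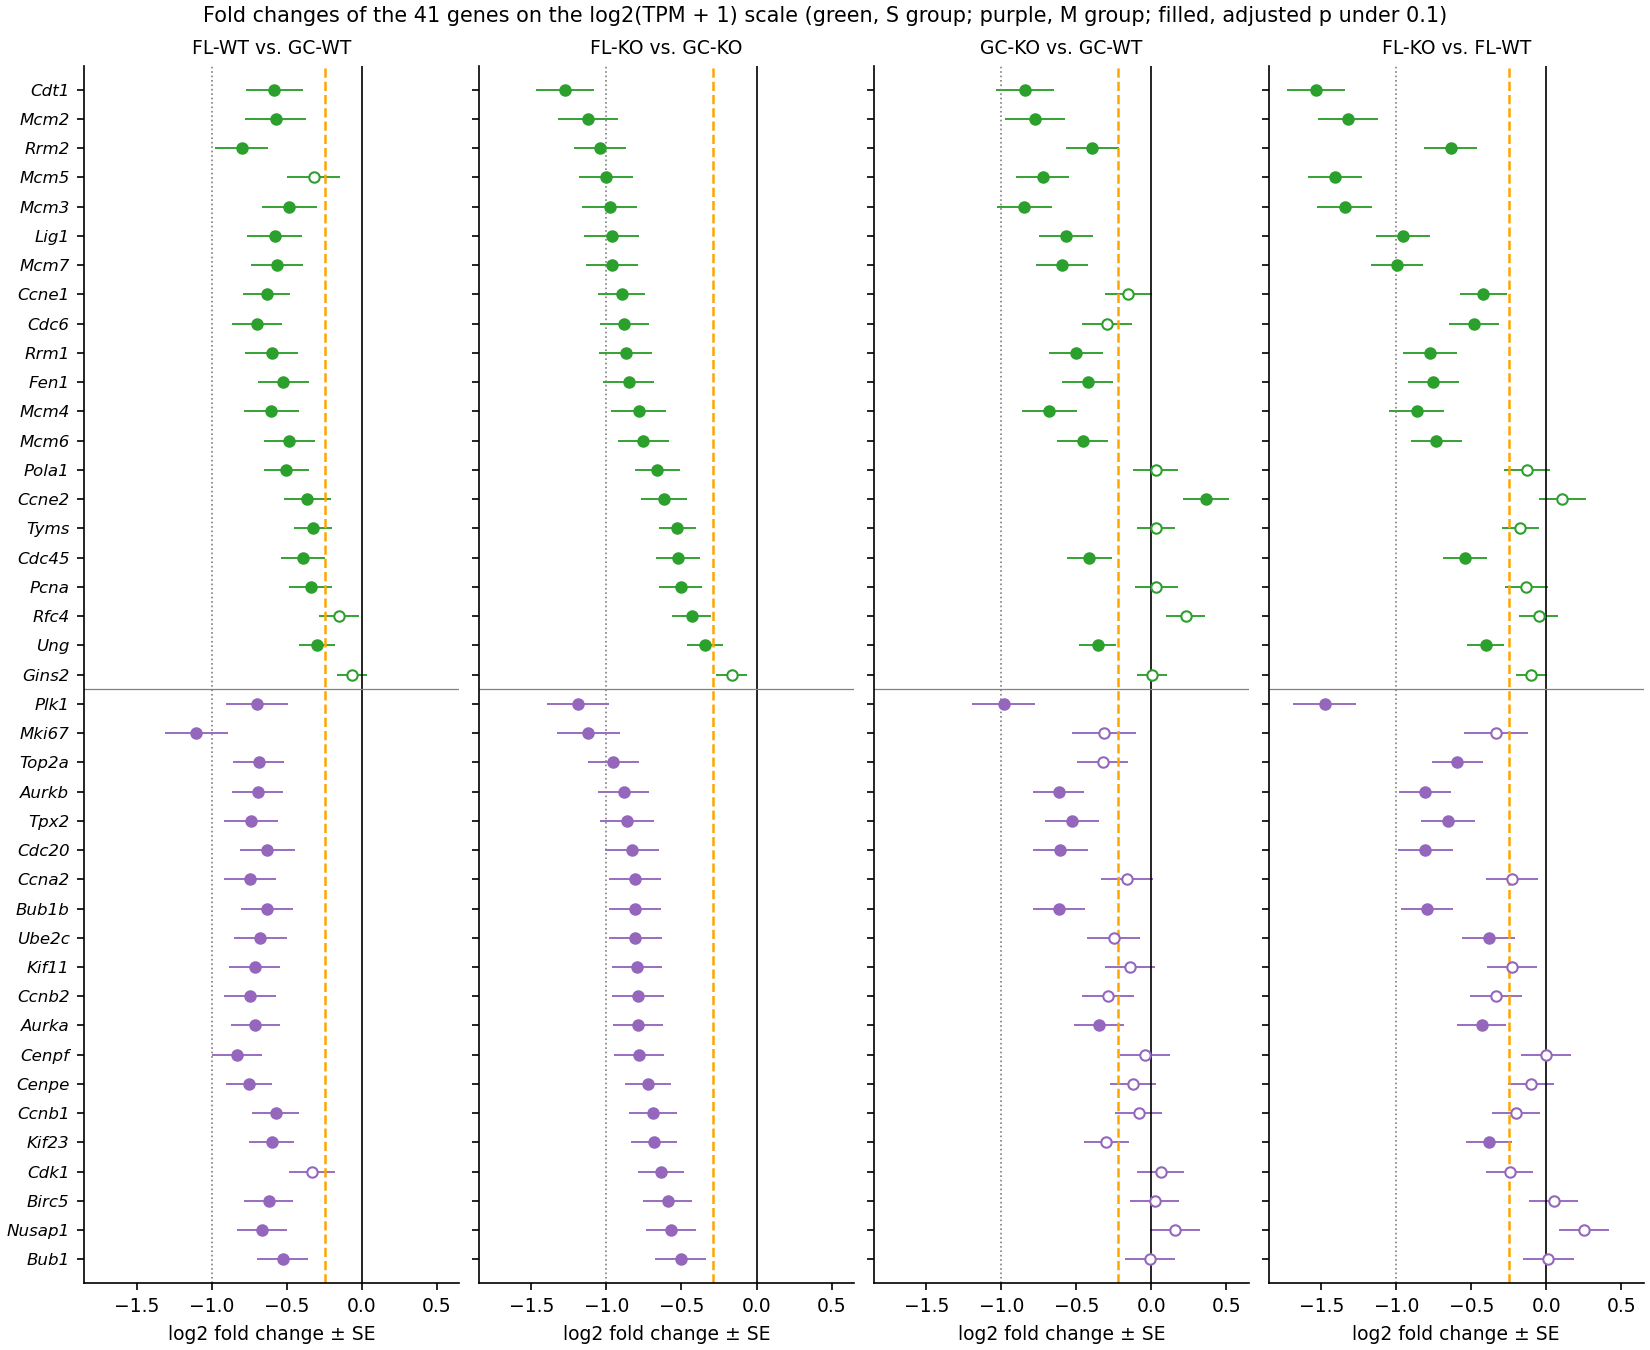
Log2 fold change on the log2(TPM + 1) scale (x axis) of the 41 members (y axis) in the 4 comparisons. Points are fold changes with bars for the SE, green for the S group and purple for the M group, filled where the adjusted p was under 0.1. The orange dashed line is the median of all tested genes and the dotted line a 2-fold decrease. Most points lie left of the dashed line in both flight comparisons, while in the genotype comparisons many M genes lie on it or to its right.

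In mice without Nrf2, flight came with lower levels of nearly the whole module. In the KO flight comparison (FL-KO vs. GC-KO), 20 of 21 S genes and 20 of 20 M genes were lower, against 53.1% of all tested genes. The median log2 fold change was -0.85 for the S group (range -1.28 to -0.17) and -0.79 for the M group (range -1.19 to -0.51), or -0.56 and -0.51 relative to all genes. The median member was at 53.1% of the GC-KO mean in the S group and at 55.1% in the M group. DEGs were 4 S genes (Cdt1, Mcm2, Rrm2 and Mcm5) and 2 M genes (Plk1 and Mki67), against 2.13% of all genes. No FL-KO mouse reached any GC-KO mouse for 15 S genes and 17 M genes, against 18.4% of all genes. With median-of-ratios scaling, 14 S genes and 16 M genes were lower, against 21.6% of all genes, and no member was a DEG, nor with quantile normalization or with the trend of GC content and length removed. The number of DEGs ranged from 4 (without FL-KO mouse 2, FL-KO mouse 4 or GC-KO mouse 11) to 10 (without FL-KO mouse 9 or GC-KO mouse 1) when single mice were left out.

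Cdt1, which brings the Mcm helicase to origins (chr8:122568015-122573554, plus strand, the gene of the E2F site printed above), was at 6.05, 7.52 and 12.8 TPM in GC-KO mice and at 2.30, 2.67 and 4.17 TPM in FL-KO mice. Its log2 fold change was -1.28 (SE 0.19, adjusted p = 4.2e-05), and its mean in FL-KO mice was 33.7% of that in GC-KO mice. Mcm2 was at 10.4, 14.2 and 20.5 TPM in GC-KO mice and at 4.62, 5.95 and 10.2 TPM in FL-KO mice (log2 fold change -1.12, SE 0.20, adjusted p = 0.000217). Rrm2 was at 39.6, 47.9 and 63.2 TPM and at 16.3, 23.6 and 33.8 TPM (log2 fold change -1.04, SE 0.18, adjusted p = 0.000115). All FL-KO mice were below all GC-KO mice for these 3 genes. Mcm5 (chr8:75109569-75128439, plus strand) was at 16.1, 20.8 and 29.2 TPM and at 8.11, 9.54 and 14.5 TPM (log2 fold change -1.003, SE 0.18, adjusted p = 0.000193), again without overlap. Mcm3, a further helicase subunit, was at 8.82, 10.6 and 16.7 TPM and at 4.39, 5.21 and 8.37 TPM, Cdc6 at 8.08, 9.36 and 11.8 TPM and at 3.80, 4.50 and 7.19 TPM, and both were lower. Ccne1 was at 8.75, 9.81 and 11.6 TPM and at 3.61, 4.88 and 7.38 TPM (log2 fold change -0.90, SE 0.16, adjusted p = 0.000149). These replication genes had no mouse in common range between flight and ground.

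Smaller differences were seen at the other end of the S group. Pcna was at 95.8, 105 and 121 TPM in GC-KO mice and at 55.7, 75.2 and 94.4 TPM in FL-KO mice (log2 fold change -0.51, SE 0.14, adjusted p = 0.00801). Rfc4 was at 14.2, 15.4 and 18.6 TPM and at 9.05, 11.3 and 13.9 TPM, and Ccne2, the other cyclin E, at 21.6, 23.0 and 26.2 TPM and at 11.9, 15.7 and 16.7 TPM. All 3 were lower and without overlap, Rfc4 being a gene whose window above holds none of the motifs. Ung was at 1, 1.29 and 1.92 TPM and at 0.690, 0.875 and 1.07 TPM and was lower with overlap. Gins2 (1.81, 2.10 and 2.38 TPM, then 1.37, 1.79 and 2.16 TPM, adjusted p = 0.181) was the 1 member that did not pass. Ung and Gins2 had the lowest mean levels of the members over all 24 mice (1.46 and 1.98 TPM), where adding 1 to TPM makes fold changes small.

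Plk1, the polo kinase that drives entry into and passage through mitosis (chr7:122159439-122169873, plus strand), had the lowest M fold change, with 5.88, 8.87 and 14.3 TPM in GC-KO mice and 2.96, 3.17 and 4.97 TPM in FL-KO mice. Its log2 fold change was -1.19 (SE 0.21, adjusted p = 0.000163). Mki67 was at 56.5, 74.6 and 117 TPM and at 27.3, 36.0 and 54.2 TPM (log2 fold change -1.12, SE 0.21, adjusted p = 0.000386), and FL-KO mice had 44.9% of the GC-KO mean. Both separated flight from ground mice in full. Top2a was at 36.9, 46.0 and 66.1 TPM and at 19.6, 23.6 and 34.1 TPM (log2 fold change -0.95, SE 0.17, adjusted p = 0.000237). Ccnb1 was at 19.1, 22.6 and 29.2 TPM and at 10.3, 13.1 and 20.6 TPM (log2 fold change -0.69, SE 0.16, adjusted p = 0.00185), and the highest FL-KO mouse lay within the range of the GC-KO mice. Cdk1, at 35.3, 40.97 and 50.7 TPM and at 19.49, 26.7 and 33.0 TPM, was lower here. Aurkb, the kinase of the chromosomal passenger complex, was at 9.22, 12.5 and 18.0 TPM and at 5.74, 6.17 and 8.26 TPM, and Birc5 (survivin), of the same complex, at 48.4, 56.9 and 70.1 TPM and at 26.7, 36.7 and 47.4 TPM. Flight and ground mice did not overlap for these 3 genes.

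The checkpoint and spindle genes lay lower in FL-KO mice as well. Bub1b, a checkpoint protein that restrains Cdc20, was at 5.85, 8.15 and 11.3 TPM in GC-KO mice and at 3.51, 3.98 and 5.39 TPM in FL-KO mice. Cdc20, the activator of the anaphase-promoting complex, was at 11.1, 14.3 and 21.6 TPM and at 5.46, 7.95 and 11.2 TPM. The kinetochore motor Cenpe was at 5.83, 7.27 and 9.78 TPM and at 3.31, 4.16 and 5.61 TPM, and Cenpf at 6.66, 8.03 and 12.02 TPM and at 3.61, 4.62 and 6.39 TPM. The smallest M fold changes of this comparison were those of Bub1, the checkpoint kinase (6.15, 7.41 and 9.99 TPM, then 4.04, 4.96 and 6.80 TPM), and of Nusap1, a protein that bundles spindle microtubules (28.3, 33.1 and 44.0 TPM, then 17.9, 23.0 and 27.7 TPM). Nusap1 in flight stayed below the ground mice, whereas Bub1 and Cdc20 overlapped slightly.

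**Figure D2:**
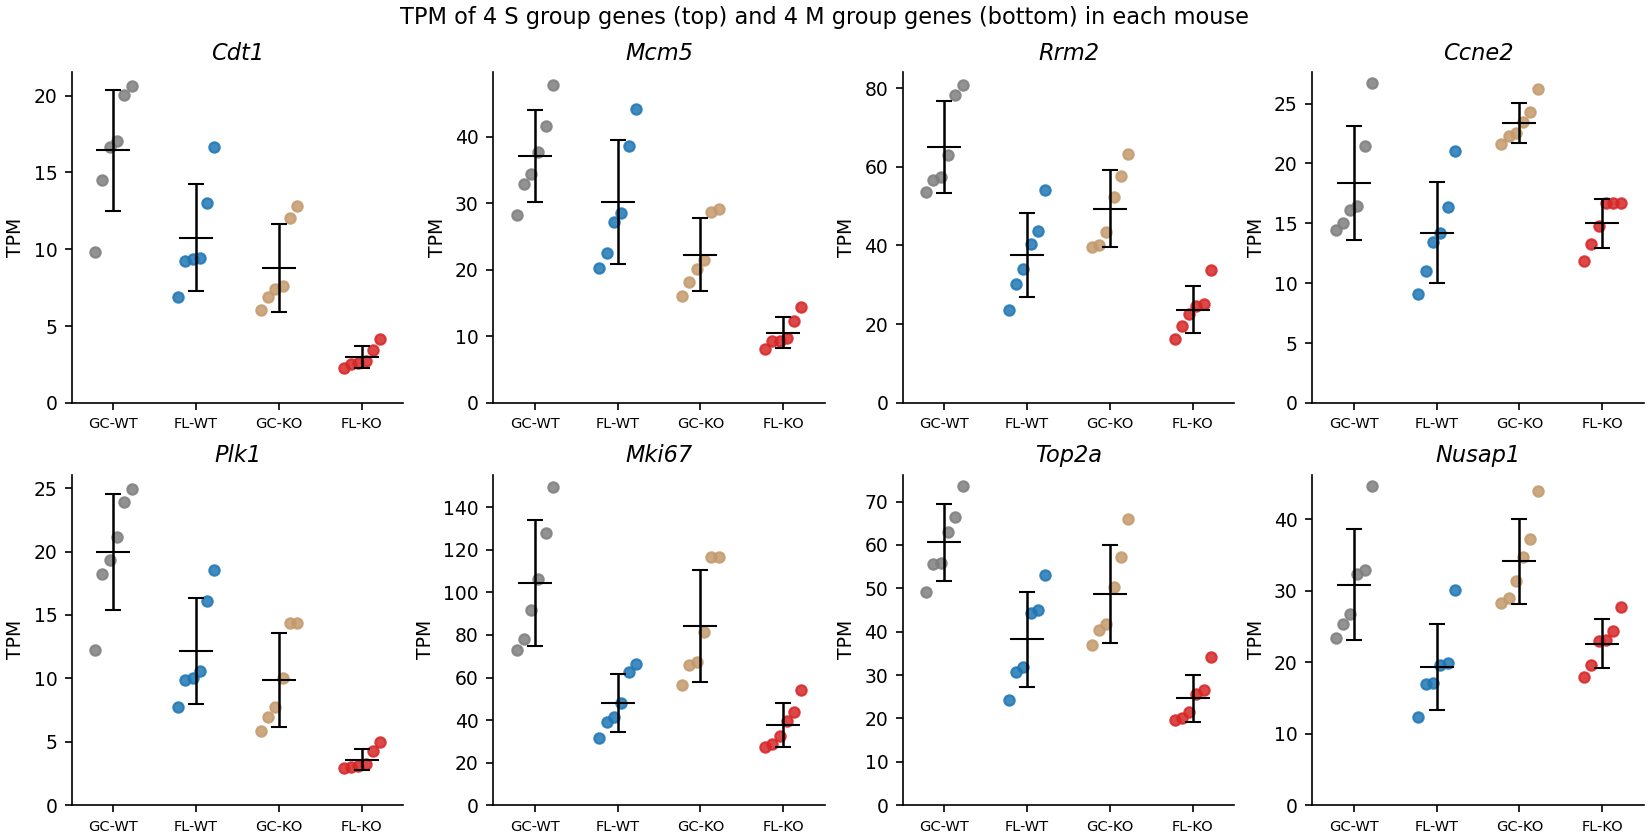
TPM (y axis, from 0) of 4 S genes (Cdt1, Mcm5, Rrm2 and Ccne2) and 4 M genes (Plk1, Mki67, Top2a and Nusap1) in the 4 groups (x axis). Each point is a mouse, and the bars show the mean and SD of 6 mice. Cdt1 and Plk1 were lower in all 4 comparisons, Mki67 in both flight comparisons, and Ccne2 was higher in the ground genotype comparison.

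The next comparison asked what the missing Nrf2 alone came with on the ground. In the ground genotype comparison (GC-KO vs. GC-WT), 13 S genes and 6 M genes were lower, against 42.9% of all tested genes. Of the S genes 1, Ccne2, was higher, against 3.13% of all genes. The 19 lower members of 41 were thus a share near that of all genes, with the S group above it and the M group below it. No member was a DEG, against 3.04% of all genes lower by that rule, and no member separated the groups in full, against 9.15% of all genes. The median log2 fold change was -0.41 for the S group (range -0.85 to 0.36) and -0.27 for the M group (range -0.98 to 0.16), or -0.19 and -0.05 relative to all genes. With median-of-ratios scaling the M group lay 0.05 above the median of all genes, 7 S genes and 5 M genes were lower against 27.8% of all genes, and 6 S genes and 8 M genes were higher against 29.8% of all genes. The direction of many members in this comparison therefore depends on the scaling.

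The lowest members of the ground genotype comparison were Plk1, Mcm3 and Cdt1. Plk1 was at 12.2, 20.2 and 25.0 TPM in GC-WT mice, against the GC-KO values given above (log2 fold change -0.98, SE 0.21, adjusted p = 0.000852). Mcm3 (chr1:20802968-20820312, minus strand) was at 15.5, 22.6 and 27.7 TPM in GC-WT mice (log2 fold change -0.85, SE 0.18, adjusted p = 0.00101), and Cdt1 was at 9.79, 16.8 and 20.6 TPM (log2 fold change -0.84, SE 0.19, adjusted p = 0.00146). The upper GC-KO mice reached into the GC-WT range for all 3. Mcm2 followed at a log2 difference of -0.77 (SE 0.20, adjusted p = 0.00368) and Rrm2 with -0.39 (SE 0.18, adjusted p = 0.0779). Bub1b, with 9.34, 13.4 and 15.1 TPM in GC-WT mice, differed by -0.62 on the log2 scale (SE 0.17, adjusted p = 0.00608), and Aurkb, with 16.3, 20.9 and 23.6 TPM, differed by as much (SE 0.17, adjusted p = 0.00569). Cdc20, at 20.2, 23.5 and 27.6 TPM in GC-WT mice, was lower as well. Of these genes, Cdt1, Mcm2 and Mcm3 load or form the helicase, while Plk1, Aurkb and Bub1b act at mitotic entry and the spindle.

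Ccne2 was the 1 member that was higher without Nrf2 on the ground. It was at 14.5, 16.2 and 26.7 TPM in GC-WT mice and differed by 0.36 on the log2 scale (SE 0.16, adjusted p = 0.0657) in GC-KO mice, a call that was lost without GC-WT mouse 3, 5, 7 or 8 or GC-KO mouse 1 or 4. Nusap1, at 23.4, 29.5 and 44.7 TPM in GC-WT mice, Birc5, at 46.2, 55.3 and 70.2 TPM, and Bub1, at 5.43, 7.67 and 11.01 TPM, did not pass the test. Mki67, Top2a, Ccnb1, Cdk1, Ccne1, Pcna and Rfc4 did not pass either, which does not show that their levels were equal.

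The last comparison set the genotypes side by side after flight. In the flight genotype comparison (FL-KO vs. FL-WT), 15 S genes and 9 M genes were lower and none was higher, against 47.2% of all tested genes lower, so the share of M genes was near that of all genes. DEGs were 4 S genes (Cdt1, Mcm5, Mcm3 and Mcm2) and 1 M gene (Plk1), against 8.36% of all genes, and 4 S genes and 3 M genes did not overlap, against 20.6% of all genes. With median-of-ratios scaling or quantile normalization 2 members (Cdt1 and Plk1) were DEGs, and with the trend of GC content and length removed 0 were, Cdt1 then being at -0.70. The median log2 fold change was -0.64 for the S group (range -1.54 to 0.11) and -0.34 for the M group (range -1.48 to 0.25), or -0.39 and -0.09 relative to all genes. With median-of-ratios scaling these relative medians were -0.25 and 0.05, with 13 S genes and 5 M genes lower against 31.2% of all genes, and 6 S genes and 8 M genes higher against 35.2%. Without FL-WT mouse 5, 16 S genes and 15 M genes were lower, against 55.7% of all genes.

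Cdt1 had the lowest fold change, with 6.88, 9.40 and 16.6 TPM in FL-WT mice and a mean in FL-KO mice of 27.6% of that in FL-WT mice (log2 fold change -1.54, SE 0.19, adjusted p = 1.32e-06). Plk1, at 7.72, 10.3 and 18.5 TPM in FL-WT mice, was at 29.6% (log2 fold change -1.48, SE 0.21, adjusted p = 3.96e-06). The helicase subunits Mcm5, Mcm3 and Mcm2 followed. Their log2 fold changes were -1.41 for Mcm5 (SE 0.18, adjusted p = 1.37e-06, 34.9% of the FL-WT mean), -1.34 for Mcm3 (SE 0.18, adjusted p = 2.98e-06) and -1.32 for Mcm2 (SE 0.20, adjusted p = 9.43e-06, 36.1%). Mcm3 was at 10.6, 14.3 and 23.6 TPM in FL-WT mice. For these 5 genes no FL-KO mouse reached the lowest FL-WT mouse (exact two-sided permutation test, p = 0.00216 for each, the smallest possible). This p restates the full separation, which 20.6% of all genes showed in this direction. The helicase subunits Mcm7 (-0.99), Mcm4 (-0.86) and Mcm6 (-0.73) were lower with overlap and were not DEGs. Aurkb was at 8.60, 11.2 and 20.7 TPM in FL-WT mice (log2 fold change -0.81, SE 0.17, adjusted p = 0.000361) and Cdc20 at 9.63, 13.3 and 23.5 TPM (log2 fold change -0.81, SE 0.18, adjusted p = 0.000748), and Bub1b, at 5.61, 7.005 and 13.2 TPM, was lower without overlap, as was Aurkb. Rrm2 (log2 fold change -0.64, SE 0.18, adjusted p = 0.00427), Top2a (-0.59, SE 0.17, adjusted p = 0.00628) and Ccne1 (-0.42, SE 0.16, adjusted p = 0.0299) were lower with overlap, and the sign of the Ccne1 value turned with quantile normalization and after adjustment for GC content and length. Mki67 did not pass (adjusted p = 0.216). Nor did Nusap1 (12.3, 18.3 and 30.1 TPM in FL-WT mice), Birc5 (24.1, 39.1 and 48.6 TPM), Bub1 (3.54, 4.90 and 8.37 TPM), Ccne2 (9.07, 13.8 and 21.1 TPM), Ccnb1, Pcna or Rfc4.

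Whether the flight difference itself differed between genotypes was tested as an interaction of flight and genotype. No member passed the adjusted p under 0.1 (0.0162% of all genes did, limma). At an unadjusted p under 0.05 in limma, 2 members passed, Mcm5 (difference of log2 fold changes -0.68, SE 0.25) and Cdt1 (-0.69, SE 0.27), against 3.46% of all genes. The adjusted p was 1 for each. Mcm5 passed the adjusted threshold with median-of-ratios scaling (-0.62, adjusted p = 0.088) and with the trend of GC content and length removed (-0.55, adjusted p = 0.095). The share of all genes that passed under these settings is not given here. Whether Mcm5 stands out there is thus not shown. The larger number of DEGs in the KO flight comparison than in the WT flight comparison is thus not shown to be a difference between genotypes by this test.

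The means of each gene group per mouse show the order of the 4 groups. GC-WT mice had a mean of log2(TPM + 1) over the S group of 4.20 ± 0.193 (SD, n = 6 in each group), followed by GC-KO mice with 3.85 ± 0.221, FL-WT mice with 3.73 ± 0.345 and FL-KO mice with 3.08 ± 0.239. Over the M group it was 4.75 ± 0.217, 4.47 ± 0.300, 4.07 ± 0.374 and 3.68 ± 0.229 in the same order. In both, the FL-KO group had the lowest mean and the GC-WT group the highest. GC-KO and FL-WT mice overlapped each other, and so did FL-KO and FL-WT mice. The S mean differed by -0.47 ± 0.16 (SE) between FL-WT and GC-WT mice, with overlap, and by -0.77 ± 0.13 between FL-KO and GC-KO mice, without overlap. The M mean differed by -0.68 ± 0.18 and -0.79 ± 0.15, both without overlap. Next, the means were taken relative to that of all tested genes per mouse. The M mean then differed by -0.43 ± 0.09 and -0.46 ± 0.09 with flight, both without overlap. Between genotypes it differed by -0.02 ± 0.08 on the ground and -0.05 ± 0.09 after flight. The relative S mean differed by -0.22 ± 0.09 and -0.44 ± 0.08 with flight, both with overlap. Between genotypes it differed by -0.09 ± 0.06 and -0.31 ± 0.10. The summed S genes had a median of 481 TPM on the ground and 377 TPM after flight for WT mice, and of 405 and 232 TPM for Nrf2-KO mice. The summed M genes had 641 and 429 TPM for WT mice and 574 and 324 TPM for Nrf2-KO mice. In bulk marrow, fewer cells of a dividing type and less RNA per cell cannot be told apart.

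FL-WT mice stood apart in the balance of the gene groups. The S mean minus the M mean of a mouse was -0.34 ± 0.07 for FL-WT mice (SD, range -0.446 to -0.230). GC-WT mice had -0.55 ± 0.06 (range -0.62 to -0.47), GC-KO mice -0.63 ± 0.11 (range -0.73 to -0.450) and FL-KO mice -0.60 ± 0.04 (range -0.65 to -0.56). Each of the 6 FL-WT mice was above each of the other 18, so that the M genes were low relative to the S genes in these mice. The difference was 0.21 ± 0.04 (SE) to GC-WT mice and -0.26 ± 0.03 for FL-KO minus FL-WT mice, whereas FL-KO and GC-KO mice differed by 0.02 ± 0.05. The mouse nearest to the FL-WT group was a GC-KO mouse, at -0.450 against -0.446 for the lowest FL-WT mouse. The balance per mouse was not computed with the trend of GC content and length removed. With that trend removed, the S minus M difference of medians in the flight genotype comparison went from -0.30 to -0.20. FL-WT mouse 5 had the lowest S and M means of its group (3.22 and 3.53) and mouse 7 the highest (4.17 and 4.53), and both kept the balance of their group.

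**Figure D3:**
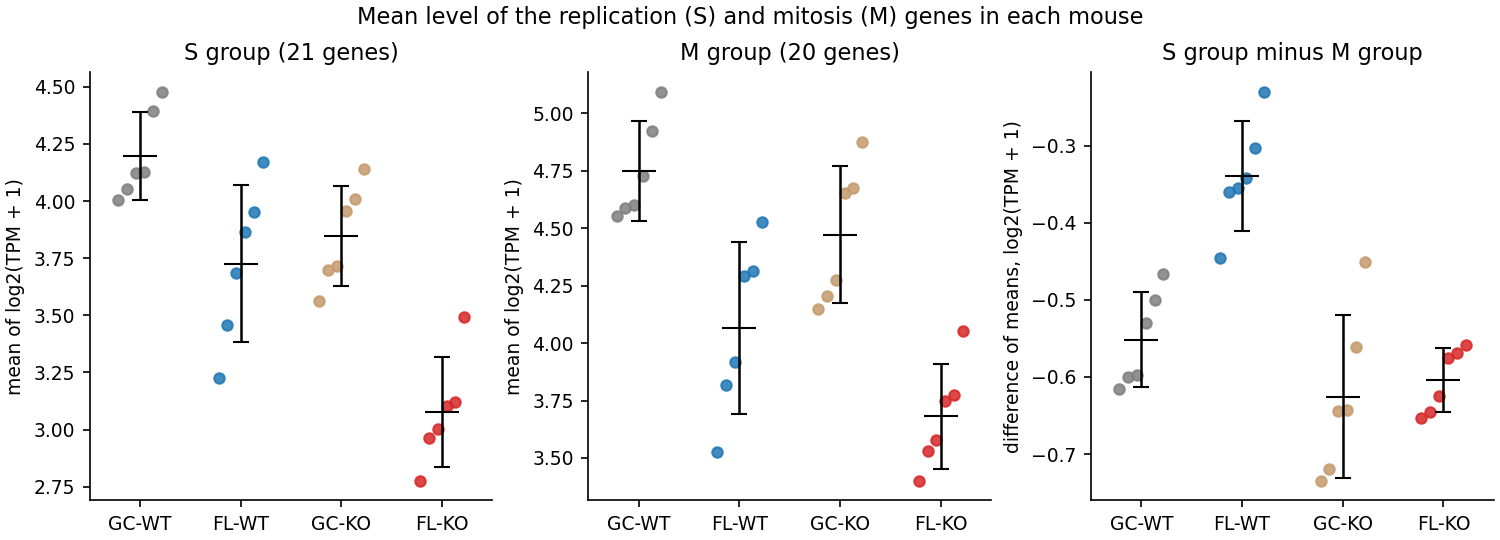
Mean of log2(TPM + 1) over the S group, the same over the M group, and their difference (y axes) in the 4 groups of 6 mice (x axis). Points are mice, and bars show the mean and SD. The FL-KO group has the lowest group mean for both gene groups, with overlap between FL-KO and FL-WT mice. In the difference all 6 FL-WT mice lie at -0.446 or above and all mice of the other groups at -0.450 or below.

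The size of the genotype differences went with the GC content of the transcripts. GC content was 36.3% (Ccne2) to 57.8% (Cdt1) over the members, with medians of 49.2% in the S group, 47.0% in the M group and 49.1% in all tested genes. Over the 41 members, Spearman's correlation of GC content with the log2 fold change was 0.07 in the WT flight comparison, -0.48 in the KO flight comparison, -0.62 in the ground genotype comparison, -0.68 in the flight genotype comparison and -0.48 in the interaction. Over all tested genes with a GC content and length (n = 12370) it was -0.03, -0.29, -0.43, -0.51 and -0.36. These are correlations across genes that share libraries, and genes are not independent replicates. Plk1 (56.0%), Cdt1, Mcm2 (51.7%), Mcm3 (52.6%) and Mcm5 (51.9%), the DEGs of the flight genotype comparison, all lie above the median of all genes. In that comparison, the 11 S genes at or above 49.1% GC had a median log2 fold change of -0.95 and the 10 below it -0.29, and the 7 M genes above had -0.80 and the 13 below -0.23. After every library was adjusted for its dependence on GC content and transcript length, these became -0.29 and -0.20 for the S group and -0.23 and 0.11 for the M group. The ground genotype comparison gave -0.57 and -0.16 for S genes and -0.61 and -0.12 for M genes, and -0.12, -0.02, -0.21 and 0.08 with the trend removed. No member remained a DEG in any comparison with the trend removed, and the part of GC content in the fold changes beyond this adjustment was not tested.

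**Figure D4:**
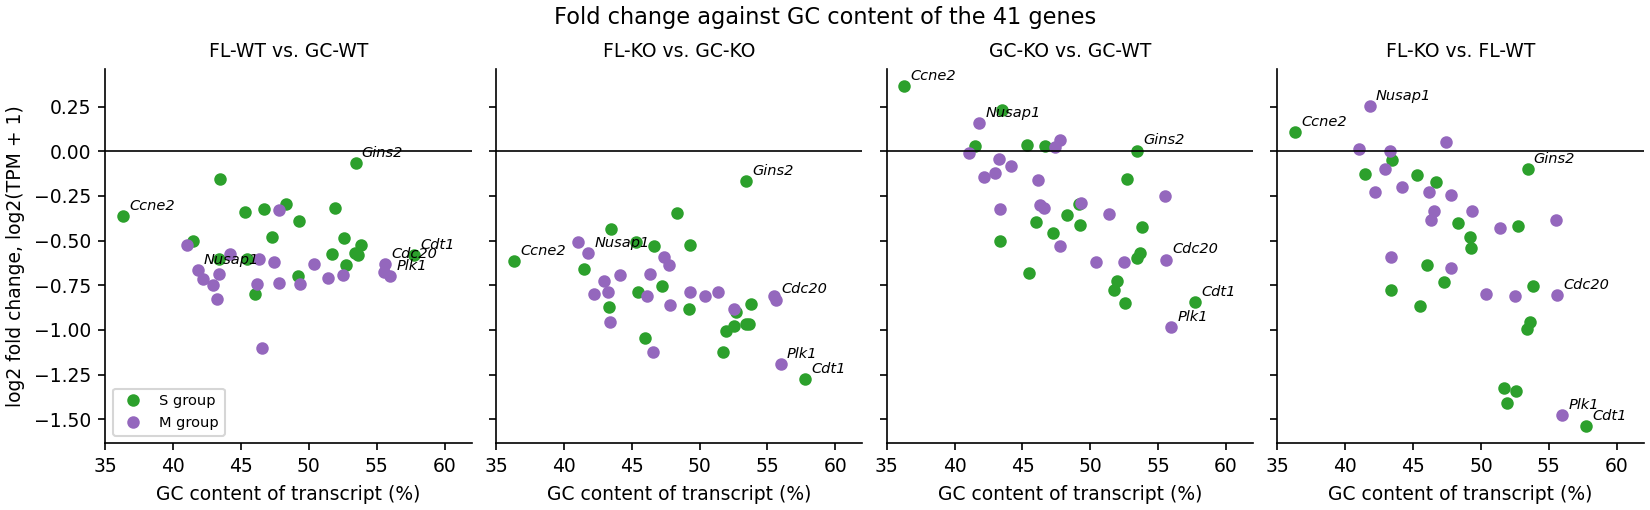
GC content of the transcript in percent (x axis) against the log2 fold change (y axis) of the 41 members in the 4 comparisons, green for the S group and purple for the M group. The points fall from left to right in the genotype comparisons and in the KO flight comparison, and show no slope in the WT flight comparison (Spearman's correlation 0.07).

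For the other genes of these pathways, the shares of all tested genes called lower were 39.0%, 53.1%, 42.9% and 47.2% in the WT flight, KO flight, ground genotype and flight genotype comparisons. These lists and the marker lists below are given for the fit without rescaling alone. How far their counts depend on scaling is not shown here. Of 32 further genes of origin licensing and the replisome, 21 were lower in the WT flight comparison, 28 in the KO flight comparison, 9 in the ground genotype comparison and 11 in the flight genotype comparison, with median log2 fold changes of -0.40, -0.47, -0.11 and -0.12, so that in both genotype comparisons fewer of them were lower than the shares of all genes. Pold1, the catalytic subunit of polymerase delta, was lowest in the ground genotype comparison (-0.93, SE 0.18, adjusted p = 0.000544) and a DEG in the KO flight comparison (-1.10, adjusted p = 8.68e-05) and the flight genotype comparison (-1.55, adjusted p = 8.86e-07), where its partner Pold2 was a DEG too (-1.02, adjusted p = 1.42e-05). In the WT flight comparison the lowest was Wdhd1, which tethers polymerase alpha to the helicase (-0.75, adjusted p = 0.000654). Of 17 genes of nucleotide supply and chromatin assembly, 9, 14, 8 and 9 were lower in the same order of comparisons, with medians of -0.34, -0.63, -0.22 and -0.54. Uhrf1 and Dnmt1, which copy DNA methylation onto new strands, were DEGs in the KO flight comparison (-1.19 and -1.03) and in the flight genotype comparison (-1.30 and -1.27), and Shmt2, of mitochondrial folate metabolism, in the latter (-1.18).

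Of 20 E2F, RB and DREAM regulators, 17, 17, 11 and 12 were lower, against the same 39.0%, 53.1%, 42.9% and 47.2% of all genes, with medians of -0.51, -0.57, -0.30 and -0.38. E2f2, an activating E2F expressed in erythroblasts, was a DEG in the KO flight comparison (-1.40, SE 0.18, adjusted p = 1.45e-05) and in the flight genotype comparison (-1.12, adjusted p = 1.61e-05), and E2f8 (-1.15), E2f4 (-1.14) and Mybl2, which encodes B-Myb (-1.05), were further DEGs in the KO flight comparison. E2f8 was lowest in the WT flight comparison (-0.95, adjusted p = 0.00065) and Foxm1 in the ground genotype comparison (-0.72, adjusted p = 0.00181). Tfdp2, a dimer partner of E2F proteins, went the other way and was higher in the ground genotype comparison (0.46, adjusted p = 0.022) and in the flight genotype comparison (0.38, adjusted p = 0.0484). Of 14 G1 cyclins, kinases and inhibitors, 11 passed the filter, and 4, 7, 7 and 9 of these were lower, with medians of -0.37, -0.54, -0.48 and -0.60. Ccnd3, cyclin D3, was lowest in the KO flight comparison (-0.99, adjusted p = 0.000273) and a DEG in the flight genotype comparison (-1.36, adjusted p = 2.21e-06). Cdk6, a kinase partner of D cyclins, was lowest in the ground genotype comparison (-0.81, adjusted p = 0.00293), and the inhibitor Cdkn2c was lowest in the WT flight comparison (-0.63, adjusted p = 0.00304).

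Among 44 further kinetochore, spindle and cytokinesis genes, 40 were lower in the WT flight comparison and 43 in the KO flight comparison, but 11 in the ground genotype comparison and 13 in the flight genotype comparison, against 39.0%, 53.1%, 42.9% and 47.2% of all genes, with medians of -0.60, -0.64, -0.14 and -0.17. In both genotype comparisons fewer of them were thus lower than the shares of all genes. Prc1, the bundler of the spindle midzone, was lowest in the WT flight comparison (-0.89, adjusted p = 0.00036), and Ccnf (-1.16), Incenp (-1.004) and the chromosome motor Kif22 (-1.002) were DEGs in the KO flight comparison. Of 16 condensin and cohesin genes, 15, 16, 6 and 8 were lower, with medians of -0.56, -0.69, -0.15 and -0.28. The condensin subunit Ncapd2 was lowest in all 4 comparisons (-0.91, -1.24, -0.77 and -1.10) and a DEG in the KO flight comparison (adjusted p = 8.46e-05) and the flight genotype comparison (adjusted p = 8.38e-05). The medians of these mitotic lists thus lay below those of all genes in both flight comparisons and above that of all genes in the ground genotype comparison.

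Markers of the cell types of marrow differed between lists and comparisons, against 39.0%, 53.1%, 42.9% and 47.2% of all genes lower in the 4 comparisons. All 6 erythroid markers reported here (Epor, Tfrc, Klf1, Ermap, Rhag and Car2) were lower in both flight comparisons, with medians of -1.03 and -1.20, while 1 was lower in the ground genotype comparison and 2 in the flight genotype comparison. Their summed level ranged over GC-WT mice from 462 to 985 TPM, over FL-WT mice from 264 to 482, over GC-KO mice from 639 to 1051 and over FL-KO mice from 290.1 to 538 TPM. All 7 B-progenitor markers reported here (Vpreb1, Igll1, Rag1, Dntt, Cd79a, Ebf1 and Pax5) were lower in both flight comparisons and 4 of 7 in both genotype comparisons, and their summed level was 108 to 152, 47.7 to 128, 62.5 to 99.7 and 33.6 to 52.01 TPM in the same order of groups. Of 5 mature neutrophil markers, 2 were higher and none lower in the WT flight comparison, 1 was higher and 2 lower in the KO flight comparison, 3 were lower in the ground genotype comparison and 5 in the flight genotype comparison, with sums of 1791 to 2433, 1986 to 3538, 1477 to 2008 and 2009 to 2742 TPM. Of 5 promyelocyte markers, 0, 1, 2 and 2 were lower, with sums of 650 to 1021, 556 to 1251, 409 to 845 and 369 to 523 TPM. Of 6 stem and progenitor markers, 4 passed the filter (Mecom and Hlf did not) and 1, 1, 3 and 3 were lower, with sums of 8.86 to 16.4, 7.73 to 15.9, 5.87 to 12.2 and 5.17 to 7.79 TPM. T and NK markers (0, 1, 1 and 3 of 5 lower, sums of 37.3 to 81.2 TPM over all mice), plasma cell markers (1, 1, 1 and 2 of 3, 51.3 to 158 TPM) and stromal and bone markers (3, 3, 0 and 0 of the 3 tested, 12.03 to 71.2 TPM, with Bglap below the filter) completed the lists. In flight the replication and mitosis genes were lower together with the reported erythroid and B-progenitor markers and the 3 tested stromal and bone markers. The part of cell type shares in their differences was not tested.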

How the data were processed

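RNA of bone marrow cells was sequenced from 24 mice, 6 in each of 4 groups taken from the labels. The authors made the values with STAR 2.6.1 and RSEM 1.3.1 on mm10, from libraries of the MGIEasy RNA Directional Library Prep Set read on the DNBSEQ-G400, and deposited them as TPM per gene, which sum to the same total in each library and hold no counts. The gene annotation they used is not given in the sources used here. TPM per library is relative to all its RNA, so small RNAs and other abundant RNAs shift every other value.

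Members and lists were chosen with earlier results of these data known. Genes with a TPM above 1 in at least 1 library (12373) were tested with limma 3.58.1 (R 4.3.3) after conversion to log2(TPM + 1), in 1 fit of the 4 group means to all 24 libraries, with Benjamini-Hochberg adjustment. Tested on simulated data of 12373 genes for the WT flight comparison, the fit recovered 200 of 200 genes changed by 2 on the log2 scale. It made 1 false call among the unchanged genes. The changed genes lay above a floor on the mean level, with independent noise and no shift of whole libraries. All members changed by less, so the simulation does not show how often changes of their size are found. Rank sums of single members were compared by an exact permutation test, two-sided. Symbols, coordinates, GC content and lengths came from GENCODE M21 on GRCm38 (54723 of 54752 rows matched), promoter windows from RefSeq on GRCm38.p6. Python 3.11.15 served for the remaining steps, with pandas 2.3.3, numpy 2.4.6 and scipy 1.17.1, and matplotlib 3.10.9 for plots.

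Given in full were members called in any comparison, the 3 lowest and 2 highest of each gene group per comparison, and Mcm2, Pcna, Rrm2, Mki67, Top2a, Ccnb1 and Ccne1, with fold changes only for those that were called. Of the other lists, called genes and extremes were named. Some marker genes are not reported here and were left out of their lists. Alternatives were a filter of TPM above 1 in 6 or more libraries or none, a smaller pseudocount (0.1), scaling by median of ratios, quantile normalization, a mean-expression trend, a fit of the compared groups, an adjusted p under 0.05, no minimum fold, a block for the mouse number, and leaving out each mouse. Leaving out small RNAs and adjusting for GC content and length were known from earlier work on these data, and counts at any fold under each alternative were added after seeing the data.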

Additional observations from a re-analysis of the deposited data

Results flagged for a closer look

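Of 176 sets of 6 mice checked (41 members, the S and M means and their difference, each in 4 groups), a single one held a value far from the rest. Rrm1, the large subunit of ribonucleotide reductase, was at 17.7 TPM in FL-KO mouse 9, whereas the next FL-KO mouse was at 11.62 TPM and the lowest at 8.77 TPM. The gap to the nearest mouse, divided by the range, was above Dixon's 95% critical value for 6 samples. Chance alone places about 1 in 20 such sets above it. The same mouse had the highest S and M means of the FL-KO group. It also lay well above the next FL-KO mouse for other S genes that stayed under the critical value, such as Mcm2 (10.23 against 6.73 TPM) and Mcm3 (8.37 against 5.9 TPM).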

How the results depend on the processing

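Numbers of DEGs changed with scaling in 3 of the 4 comparisons, with the minimum fold in all 4 and with single mice, and the cause was not tested beyond what each alternative itself changes. Shares of all tested genes are given above for the fit without rescaling and, at any fold in the 4 comparisons, for median-of-ratios scaling. They are also given at any fold without FL-WT mouse 5. Other counts under the alternatives, here and above, come without such shares. They do not show how the members stand against all genes. In the WT flight comparison (1 DEG) there were 0 with median-of-ratios scaling, quantile normalization or the trend of GC content and length removed, and 37 with no minimum fold. In the KO flight comparison (6) there were 11 with a pseudocount of 0.1, 0 with median-of-ratios scaling, quantile normalization or the trend removed, 3 without the small RNAs and 40 with no minimum fold. The ground genotype comparison (0) gave 1 with a pseudocount of 0.1, 1 without the small RNAs, and 19 lower and 1 higher with no minimum fold. The flight genotype comparison (5) gave 2 with median-of-ratios scaling, 2 with quantile normalization, 0 with the trend removed and 24 with no minimum fold. With no filter on low values the median of all genes is 0, so relative medians became -0.50, -0.85, -0.41 and -0.64 for the S group and -0.69, -0.79, -0.27 and -0.34 for the M group (comparisons in the same order). The S minus M difference of medians in the flight genotype comparison was -0.30, and -0.20 with the trend removed. In the interaction 1 member passed with median-of-ratios scaling and 1 with the trend removed, without shares of all genes to set beside these counts.

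At any fold, lower S genes of the WT flight comparison numbered 18, and 6 with no filter, 6 with median-of-ratios scaling, 11 with quantile normalization and 11 with the trend removed. In the KO flight comparison 1 S gene was higher with the trend removed. In the ground genotype comparison, lower S genes (13) numbered 8 with no filter, 7 with median-of-ratios scaling and 7 with the trend removed, higher S genes (1) numbered 0 with no filter, 6 with median-of-ratios scaling, 5 with quantile normalization, 0 without the small RNAs and 4 with the trend removed, lower M genes (6) numbered 13 without the small RNAs, and higher M genes (0) numbered 8, 7 and 6 with median-of-ratios scaling, quantile normalization and the trend removed. In the flight genotype comparison, higher S genes (0) numbered 6, 6 and 2 under the same alternatives, lower M genes (9) numbered 5 with median-of-ratios scaling, and higher M genes (0) numbered 8 and 7 with median-of-ratios scaling and quantile normalization, 1 without the small RNAs and 5 with the trend removed. The fold change turned for Pcna in the WT flight comparison (0.0077 with median-of-ratios scaling) and for Ccne1 in the flight genotype comparison (0.024 with quantile normalization, 0.045 with the trend removed).

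Leaving out single mice gave 0 to 1, 4 to 10, 0 to 1 and 5 to 7 lower DEGs in the 4 comparisons (WT flight, KO flight, ground genotype, flight genotype) and 0 to 0 higher ones. The 1 in the ground genotype comparison was Plk1, without GC-KO mouse 9, 11 or 12 or GC-WT mouse 5 or 10, and the KO flight comparison had 9 without GC-KO mouse 4. Relative medians ranged from -0.32 to -0.22, -0.66 to -0.49, -0.22 to -0.16 and -0.47 to -0.32 for the S group and from -0.48 to -0.39, -0.56 to -0.47, -0.10 to 0.01 and -0.15 to -0.05 for the M group, and their differences from 0.16 to 0.20, -0.10 to -0.02, -0.19 to -0.12 and -0.32 to -0.27. No member passed in the interaction (0 to 0). At any fold, 10 to 19, 20 to 20, 10 to 14 and 15 to 16 S genes and 19 to 20, 20 to 20, 5 to 9 and 6 to 15 M genes were lower, 0 to 2 S genes were higher in the ground genotype comparison, and 0 to 1 M genes in the flight genotype comparison (1 without FL-WT mouse 10).

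With the mouse number as a replicate block, 19 S genes and 20 M genes were lower in the WT flight comparison and 20 and 20 in the KO flight comparison, and DEGs stayed at 1 and 6. The shares of all genes under this fit are not given here. Same-numbered mice are different animals. Correlations of their deviations were 0.10, 0.06, -0.03, 0.26, 0.16 and 0.21 (WT 3, 5, 6, 7, 8 and 10) and 0.06, 0.02, 0.21, 0.27, 0.21 and -0.01 (KO 1, 2, 4, 9, 11 and 12), and 3 mice (WT 7, KO 9 and KO 11) correlated best with their own number, so the numbers were not taken as pairs. No paired analysis was possible because WT and Nrf2-KO mice share no numbers in the genotype comparisons. Depth is unknown, so what it limits cannot be given.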
